A study of Mus musculus with 12 samples.

Results

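Transcripts of the nuclear genes for the respiratory chain and the ATP synthase were followed in back skin of mouse embryos that lack keratins. Genes were taken by symbol: those beginning with Nduf, Uqcr or Atp5, those beginning with Cox4, Cox5, Cox6, Cox7 or Cox8, the Sdh genes of succinate dehydrogenase, Cyc1 and Cycs. Of 87 such genes on the array, 82 had a probe detected (detection p under 0.05) on at least 3 of the 12 arrays and were measured here, among 11163 genes tested in all. They comprised 34 genes of complex I, 5 complex I assembly factors with an Nduf symbol, 3 genes of complex II, 7 of complex III, cytochrome c, 16 genes of complex IV and 16 of the ATP synthase, or complex V. Cox7b2, Cox8c, Ndufs1, Uqcrfs1 and Uqcrq were on the array and did not meet the detection rule. Sdha and the subunits encoded in mitochondrial DNA were not analysed here.

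The 4 groups held 3 arrays each, all of back skin from C57BL/6 embryos of stage E18.5, shortly before birth. Type I keratin KO embryos lacked the type I keratin gene cluster and Type II keratin KO embryos the type II cluster, and each knockout had its own wild-type group, Wild type I and Wild type II. Keratins of both types pair to build the intermediate filaments of epithelial cells, and the series title asks how they bear on mitochondrial activity. Whether the arrays of a group came from separate embryos is not in the labels. The p-values therefore measure the spread between the samples as labelled, and some of that spread may be technical.

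The respiratory chain passes electrons from NADH (through complex I) and from succinate (through complex II) to ubiquinone, then through complex III, cytochrome c and complex IV to oxygen. Complexes I, III and IV pump protons across the inner mitochondrial membrane, and the ATP synthase uses their return to make ATP. Skeletal muscle and brown fat, which can be included when skin is taken, are rich in these transcripts and use some isoforms of complex IV that other tissues make little of.

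Between 13272 and 13693 probes were detected per array, and arrays of 1 group correlated at 0.962 to 0.991 over the genes tested. Krt14, a type I keratin, averaged a log2 signal of 14.18 over the Wild type I arrays and was not detected on any of the 3 Type I keratin KO arrays (4.43). Krt5, a type II keratin, had 10.62 in Wild type II and was not detected on any of the 3 Type II keratin KO arrays (4.54). Log2 signal here means the background-corrected, quantile-normalized bead signal, and levels of different genes are not set against each other because each probe has its own brightness. Of the 82 members, 79 were detected on all 12 arrays. The exceptions were Cox4i2 on 10 arrays, Atp5k on 4 and Ndufb11 on 3.

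A pair of arrays stood apart. Ucp1, the uncoupling protein of brown fat, was detected only on Wild type I array 2 (log2 signal 9.14) and Type II keratin KO array 2 (8.64). On the other 10 arrays its signal lay between 4.41 and 4.77, without detection. Cidea, a lipid droplet protein of brown fat, was detected on all 12 arrays and was highest on the same arrays, at 10.60 and 10.61. On the remaining arrays it had 6.12 and 6.61 in Wild type I, 8.57 to 8.78 in the Type I keratin KO, 5.80 to 6.52 in Wild type II, and 7.76 and 7.55 in the Type II keratin KO, so the knockout arrays were above the wild-type arrays among these 10. The changes of Cidea were 0.89 ± 1.01 and 2.39 ± 1.01 with all arrays, neither called (adjusted p = 0.549 and 0.0837). Without both arrays it rose by 2.30 ± 0.22 and 1.40 ± 0.22 (adjusted p = 0.000128 and 0.00145). Of the other brown fat markers looked up, Dio2, Ppara and Prdm16 were not detected on any array, and Elovl3 only on Wild type II arrays 1 and 2. Wild type I array 2 was the highest array of its group for 58 of the 82 members (70.7%, against 27.9% of all genes tested). Type II keratin KO array 2 was the highest of its group for 54 of 82 (65.9%, against 34.4% of all genes). Those arrays lie on opposite sides of the knockout contrasts, so the main results are given with all 12 arrays and, as a choice made after seeing the data, without both.

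**Figure D1:**
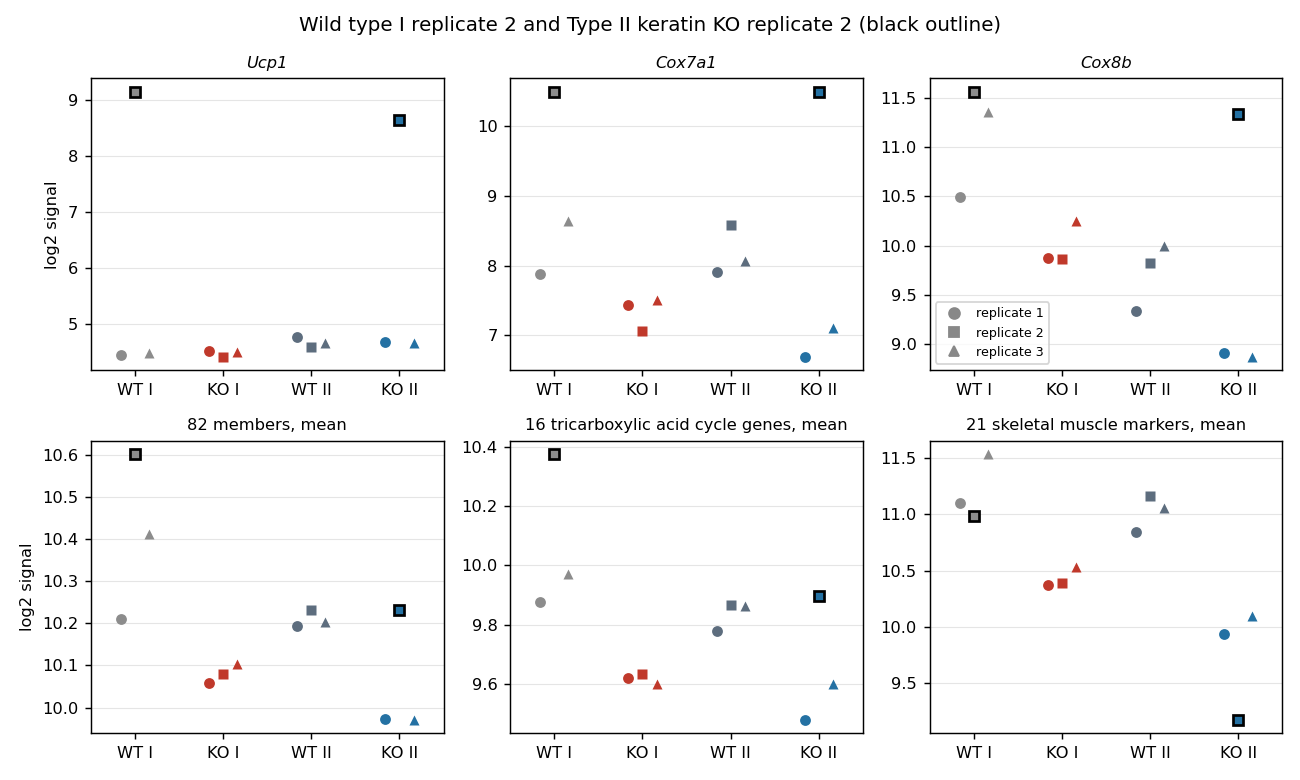
Log2 signal (y axis) of Ucp1, Cox7a1 and Cox8b and the mean log2 signal of 3 gene lists on each of the 12 arrays, by group (x axis; WT, wild type; KO, knockout), 1 point per array. The black-outlined Wild type I array 2 and Type II keratin KO array 2 are the only arrays on which Ucp1 was detected and have the highest Cox7a1 signals, 10.49 and 10.50, while Type II keratin KO array 2 has the lowest mean of the 21 skeletal muscle markers, 9.18.

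In skin without type I keratins, 16 of the 82 members fell and 1 rose (limma, Benjamini-Hochberg adjusted p under 0.05 over all 11163 genes). The members' count of falls, 19.5%, compares with 15.6% of all genes tested, and their rises, 1.22%, with 12.2%. Of the 2791 genes with the highest mean signal, which include 59 of the 82 members, 18.1% fell and 14.0% rose. Among these bright genes 61.0% of changes were below 0, with a median of -0.12. Direction was more uniform than size: 73 of 82 changes were below 0 (89.0%, against 61.0% of all genes tested). The median log2 fold change was -0.29, against -0.11 over all genes tested. For 37 members all knockout arrays lay below all wild-type arrays (28.5% of all genes tested did so), and for 1 member all lay above (18.4% of all genes). Without the pair of arrays that stood apart, 16 members fell and 1 rose, with 14 of the fallen in common. The median was then -0.21 with 72 changes below 0, and 14.5% of all genes fell. The count was also lower without single arrays: 8 members were called without Wild type I array 2, and 9 without Type I keratin KO array 1 or without array 2, against 17 with all. Without Wild type I array 2, 7 members and 10.5% of all genes fell. In the other 2 fits 9 members fell, with 9.12% and 9.64% of all genes. With median scaling in place of quantile normalization 6 members fell and 1 rose, while 14.3% of all genes fell and 10.2% rose. The members' share of falls was thus below that of all genes with median scaling and without Wild type I array 2.

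In skin without type II keratins, 10 members fell and 3 rose. Here 12.2% of the members and 21.8% of all genes tested fell. Rises were 3.66% of the members and 15.7% of all genes, so both shares of the members were below the background. Of the 2791 genes with the highest mean signal, 23.9% fell and 15.8% rose. The median change was -0.14 (-0.08 over all genes), and 53 of 82 changes were below 0. With median scaling in place of quantile normalization 13 members fell and 1 rose, 65 changes were below 0 and the members' median was -0.19, but all genes shifted too: 25.3% of them fell, 11.1% rose and their median was -0.17. All knockout arrays lay below all wild-type arrays for 28 members (29.3% of all genes) and above them for 4 (19.9% of all genes). Without both arrays that stood apart, 22 members fell and 2 rose, 9 of the fallen being in common, with a median of -0.22, 63 changes below 0 and 17.8% of all genes falling. Fewer were called without Wild type II arrays 1 (7), 2 (6) or 3 (7), or without Type II keratin KO array 1 (8), against 13 with all. In these fits 6, 4, 6 and 6 members fell. The shares of all genes that fell were lower too, at 16.8%, 15.95%, 16.8% and 19.2%, against 21.8% with all arrays. Those that rose were 12.7%, 12.6%, 12.5% and 13.7%, against 15.7%. These are bulk samples, in which fewer cells of a type and less RNA per cell cannot be told apart.

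**Figure D2:**
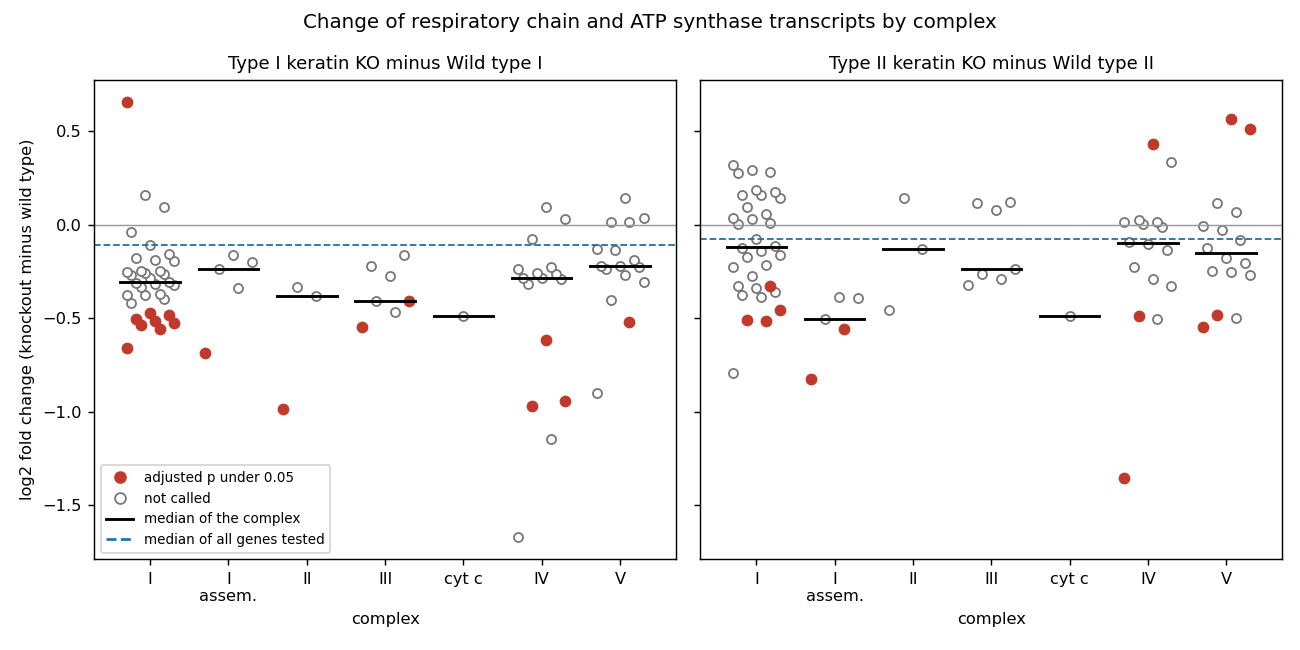
Log2 fold change of each of the 82 members (y axis) by complex (x axis; assem., assembly factors; cyt c, cytochrome c) in the Type I keratin KO (left) and the Type II keratin KO (right), each against its own wild type. Filled points passed an adjusted p of 0.05; the median of the complex (black bar) lies below the median of all genes tested (dashed line) for every complex in the type I comparison, at -0.22 to -0.49 against -0.11.

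Complex I, the NADH dehydrogenase, had 8 of 34 genes fall and 1 rise in the type I knockout, with a median of -0.31. Its share of called genes, 26.5%, was near the 27.8% of all genes tested. Of the same genes 4 fell and 0 rose in the type II knockout, with a median of -0.12, and the 11.8% called lay below the 37.5% of all genes. Without both arrays that stood apart the order of the counts turned. Of the 34 genes, 8 fell in the type I knockout (median -0.20) and 10 in the type II knockout (median -0.18). The shares of all genes that then fell were 14.5% and 17.8%. Core subunits carry the electron path and have bacterial counterparts. Among the 5 measured, 3 fell in the type I knockout (median -0.50) and 0 in the type II knockout. The difference between both changes was called for 0 of the 5. Of all genes tested, 15.6% fell in the type I knockout and 21.8% in the type II knockout. Ndufs7, an iron-sulfur subunit near the ubiquinone site, fell by 0.66 ± 0.16 (± standard error, adjusted p = 0.011) in the first and had a change of -0.11 ± 0.16 in the second (adjusted p = 0.622). Ndufv2, another iron-sulfur subunit, fell by 0.50 ± 0.14 (adjusted p = 0.0194) and had a change of -0.37 ± 0.14 (adjusted p = 0.0527), called as a fall of 0.46 ± 0.13 without both arrays that stood apart (adjusted p = 0.0222). The other 2 measured core genes, Ndufs3 and Ndufs8, were not called, at -0.40 and -0.31 in the type I knockout and 0.01 and -0.34 in the type II knockout.

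Ndufv1 encodes the subunit that binds NADH. Its log2 signals were 11.61, 11.98 and 12.06 on the Wild type I arrays and 11.33, 11.35 and 11.36 on the Type I keratin KO arrays. They were 11.57, 11.67 and 11.57 in Wild type II and 11.74, 11.66 and 11.43 in the Type II keratin KO. All type I knockout arrays lay below their wild type, while the type II groups overlapped. Ndufv1 fell by 0.53 ± 0.14 without type I keratins (adjusted p = 0.0137), a call lost on leaving out Wild type I array 2 (adjusted p = 0.0516) and with median scaling. It had a change of 0.01 ± 0.14 in the type II knockout (adjusted p = 0.977). The difference between both changes, 0.54 ± 0.19, was not called (adjusted p = 0.179).

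Accessory subunits surround that core. Of 29 measured, 5 fell and 1 rose in the type I knockout (median -0.27), and 4 fell in the type II knockout. The shares that fell were 17.2% and 13.8%, against 15.6% and 21.8% of all genes tested. Ndufa13, also known as GRIM-19, had 12.77, 12.93 and 12.96 in Wild type I and 12.39, 12.40 and 12.45 in the Type I keratin KO. In the other series it had 12.91, 13.04 and 12.93 in wild type and 12.68, 12.70 and 12.53 in the knockout. Neither pair of groups overlapped. Ndufa13 fell by 0.47 ± 0.11 without type I keratins (adjusted p = 0.00792) and by 0.33 ± 0.11 in the type II knockout (adjusted p = 0.0335). Of 23 alternatives the first call was lost only with median scaling (adjusted p = 0.105). The second call was lost in 9 of 23 alternatives, among them median scaling, without Type I keratin KO array 2 (adjusted p = 0.0503), without Wild type II arrays 1, 2 or 3 (0.064, 0.118 and 0.0732) and without Type II keratin KO arrays 1 or 3 (0.0524 and 0.0846).

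Ndufa2 and Ndufs6, accessory subunits of the arm that reaches into the matrix, fell in both knockouts, Ndufa2 by 0.56 ± 0.18 and 0.51 ± 0.18 and Ndufs6 by 0.48 ± 0.15 and 0.46 ± 0.15. Their adjusted p values lay between 0.0281 and 0.0457. Ndufs4, of the same arm, and Ndufb8, of the membrane arm, fell in the type I knockout, by 0.51 ± 0.17 (adjusted p = 0.0462) and 0.52 ± 0.14 (adjusted p = 0.0165). Their changes in the type II knockout were -0.38 ± 0.17 and -0.36 ± 0.14, not called with all arrays and called without the pair that stood apart (adjusted p = 0.0147 and 0.0286). These type I calls were lost in some fits without 1 array, and all of them with median scaling. Ndufb8 and Ndufv2 lost theirs without Wild type I array 2 (0.0685 and 0.0797) or Type I keratin KO array 1 (0.0722 and 0.0728), and Ndufs4 without any array of the type I series, any of Wild type II or Type II keratin KO array 3 (0.0505 to 0.13). Arrays of the type II series enter a type I call only through the shared estimate of spread and the adjustment. The type I change of Ndufs4 lay between -0.59 and -0.46 over all 23 alternatives.

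Ndufs6 lost its type I call without Wild type I arrays 2 or 3 or Type I keratin KO arrays 1 or 2 (adjusted p 0.0553 to 0.106). It lost its type II call without any Wild type II array or Type II keratin KO arrays 1 or 3 (0.0601 to 0.0782). Ndufa2 lost its type I call without Wild type I arrays 2 or 3, Type I keratin KO arrays 1 or 2 or any Wild type II array (0.0556 to 0.139). Its type II call was lost without Wild type I array 2, Type I keratin KO arrays 1 or 2, any Wild type II array or Type II keratin KO arrays 1 or 3 (0.054 to 0.15). The type I calls of both genes and the type II call of Ndufs6 were also lost with median scaling. Both genes kept their direction in every one of these fits.

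Ndufa5 had the lowest adjusted p of the complex I subunits in the type II knockout. Its log2 signals were 10.42, 10.46 and 10.45 in Wild type II and 9.69, 10.10 and 10.02 in the Type II keratin KO. In the type I series they were 10.30, 10.59 and 10.40 in wild type and 10.18, 10.21 and 10.04 in the knockout. Each knockout lay wholly below its wild type. The fall of 0.51 ± 0.13 in the type II knockout (adjusted p = 0.00989) kept its call under all 23 alternatives, and the change of -0.29 ± 0.13 in the type I knockout was not called (adjusted p = 0.127). The lowest complex I change in the type II knockout was that of Ndufb10, -0.79 ± 0.32, not called (adjusted p = 0.0733) with an SD over 3 arrays of 0.469 and 0.422 in its groups.

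Ndufa4 went the other way. It carries a complex I name, and its protein is known to sit in complex IV. With the loss of type I keratins it rose by 0.66 ± 0.21 (adjusted p = 0.038), from 11.36 ± 0.44 to 12.02 ± 0.204 (SD, n = 3), with no overlap of the groups. The call was lost in 7 of 23 alternatives, among them without Wild type I arrays 1 or 3 (0.0697 and 0.131), Type I keratin KO arrays 1 or 2 (both 0.112) or Wild type II array 3 (0.0512). Omitting both arrays that stood apart gave 0.87 ± 0.21 (adjusted p = 0.0149). Its change in the type II knockout was 0.32 ± 0.21 and not called (adjusted p = 0.268).

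Assembly factors build complex I and are not part of the finished enzyme. Of the 5 measured, 1 fell in the type I knockout (median -0.23) and 2 in the type II knockout (median -0.50). Among all genes tested 15.6% and 21.8% fell. All 5 changes were below 0 in both knockouts, as were 61.0% and 56.5% of the changes of all genes. Ndufaf5, an enzyme that modifies the core subunit Ndufs7 during assembly, had 8.0, 8.21 and 8.24 in Wild type I and 7.42, 7.58 and 7.38 in the Type I keratin KO. It had 7.81, 7.65 and 7.54 in Wild type II and 6.73, 6.88 and 6.92 in the Type II keratin KO. Knockout and wild-type arrays did not overlap in either series. Ndufaf5 fell by 0.69 ± 0.12 (adjusted p = 0.00211) and by 0.82 ± 0.12 (adjusted p = 0.000405), and both calls held under all 23 alternatives.

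Ndufaf7, a methyltransferase of complex I assembly, had 6.58, 6.65 and 6.54 in Wild type II and 6.08, 5.88 and 6.14 in the Type II keratin KO. Its signals were 6.44, 6.60 and 6.04 in Wild type I and 6.36, 6.29 and 5.94 in the Type I keratin KO. The type II groups were apart and the type I groups overlapped. It fell by 0.56 ± 0.16 in the type II knockout (adjusted p = 0.0179), a call lost without Wild type II array 2 (0.0596) or Type II keratin KO array 2 (0.0588). Ndufaf1, needed for the membrane arm, had changes of -0.34 ± 0.20 and -0.38 ± 0.20, neither called.

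Complex II, succinate dehydrogenase, links the chain to the tricarboxylic acid cycle. Of its 3 measured genes, 1 fell in the type I knockout and 0 in the type II knockout, where 15.6% and 21.8% of all genes fell. Sdhb, the iron-sulfur subunit, had 9.21, 9.93 and 9.16 in Wild type I and 8.58, 8.58 and 8.20 in the Type I keratin KO. It had 9.17, 9.26 and 9.15 in Wild type II and 8.68, 8.79 and 8.74 in the Type II keratin KO. In both series every knockout array was below every wild-type array, and the highest value was that of Wild type I array 2. Sdhb fell by 0.98 ± 0.19 without type I keratins (adjusted p = 0.00306) and by less without both arrays that stood apart (-0.74 ± 0.14, adjusted p = 0.00567). Its type II change was -0.45 ± 0.19 with all arrays (adjusted p = 0.0784) and -0.48 ± 0.14 without both (adjusted p = 0.0287). The membrane anchors Sdhc and Sdhd had changes of -0.33 ± 0.24 and -0.38 ± 0.23 in the type I knockout and of -0.13 ± 0.24 and 0.15 ± 0.23 in the type II knockout, with no call.

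Promoter sequence was looked at for Ndufaf5 and Sdhb, the members with the lowest adjusted p in the type I knockout. Nuclear genes of the chain are known to be served by the factors NRF1 (nuclear respiratory factor, which is not Nrf2), GABP and YY1. RefSeq promoter windows of 300 bases, 250 before and 50 after the start, on build GRCm38.p6, are printed for Ndufaf5 at chr2:140170396-140170695 and Sdhb at chr4:140961021-140961320, both on the plus strand. Capitals mark a match to the NRF1 motif, GCGCA and GCGC with any base between.
Ndufaf5: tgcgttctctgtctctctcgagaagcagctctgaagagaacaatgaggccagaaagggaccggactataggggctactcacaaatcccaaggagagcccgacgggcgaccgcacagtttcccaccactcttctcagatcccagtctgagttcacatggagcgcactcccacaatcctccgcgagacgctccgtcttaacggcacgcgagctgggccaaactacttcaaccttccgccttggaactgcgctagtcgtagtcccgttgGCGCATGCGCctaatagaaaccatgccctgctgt
Sdhb: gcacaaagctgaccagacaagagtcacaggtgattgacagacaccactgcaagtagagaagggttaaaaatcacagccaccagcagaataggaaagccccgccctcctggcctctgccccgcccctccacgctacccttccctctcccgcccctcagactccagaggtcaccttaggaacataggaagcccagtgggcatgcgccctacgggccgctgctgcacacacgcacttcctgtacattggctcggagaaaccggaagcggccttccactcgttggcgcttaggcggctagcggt

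The Ndufaf5 match lies at bases 267 to 276 of the window and reads the same on both strands. The Sdhb window holds no exact match to that motif, to the ETS motif CCGGAAGT of GABP or to the YY1 motif AAGATGGCG, each searched on both strands. Only exact strings were counted, and the Sdhb window holds near matches to the NRF1 and ETS motifs that differ in a single base. Over the 74 windows of the 69 members found in the table, the NRF1 motif occurred in 17 (23.0%), against 9.08% of 10656 windows of tested genes and 4.60% of all 32851 windows. The ETS motif occurred in 5 (6.76%, against 7.27% of tested genes' windows and 3.89% of all). The YY1 motif occurred in 7 (9.46%, against 2.66% and 1.40%). None of the 3 motifs contains another, and a match describes the sequence, not a bound site.

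Complex III, the cytochrome bc1 complex, had 2 of 7 genes fall in the type I knockout (median -0.41) and 0 in the type II knockout (median -0.24). The shares called were 28.6% and 0%, against 27.8% and 37.5% of all genes tested. Both fallen genes encode small subunits. Uqcr10 had 12.56, 12.96 and 12.85 in Wild type I and 12.33, 12.36 and 12.46 in the Type I keratin KO. Uqcr11 had 11.86, 12.49 and 12.42, and 11.60, 11.70 and 11.81. In the type II series Uqcr10 had 12.77, 12.85 and 12.76 in wild type and 12.49, 12.72 and 12.46 in the knockout, and Uqcr11 had 11.95, 12.07 and 12.01 in wild type and 11.71, 11.86 and 11.60 in the knockout. No groups overlapped in either series, and Wild type I array 2 was the highest for both genes.

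Uqcr10 fell by 0.41 ± 0.13 (adjusted p = 0.0359) and Uqcr11 fell by 0.55 ± 0.16 (adjusted p = 0.0257) in the type I knockout. Without both arrays that stood apart these calls were lost (adjusted p = 0.0896 for Uqcr10 and 0.0837 for Uqcr11), and no complex III gene was then called there. The type I calls of both were also lost with median scaling. They were lost as well without Wild type I arrays 2 or 3 (0.131 and 0.0824 for Uqcr10, 0.0995 and 0.0796 for Uqcr11) and without Type I keratin KO arrays 1 or 2 (0.104 and 0.0941, and 0.0867 and 0.0671). For Uqcr10 the same held without Type I keratin KO array 3 (0.0556) or Wild type II arrays 1, 2 or 3 (0.0518, 0.0501 and 0.0522). The type II values were -0.24 ± 0.13 for Uqcr10 and -0.29 ± 0.16 for Uqcr11 (adjusted p = 0.175 and 0.182).

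Cyc1, the heme-bearing cytochrome c1 that hands electrons on to cytochrome c, had 10.12, 10.82 and 10.40 in Wild type I and 10.01, 10.12 and 9.81 in the Type I keratin KO. It had 10.44, 10.34 and 10.45 in Wild type II and 10.57, 10.59 and 10.42 in the Type II keratin KO. Both pairs of groups overlapped. Its changes of -0.47 ± 0.16 (adjusted p = 0.052) and 0.12 ± 0.16 (adjusted p = 0.616) were not called. Uqcrb, a small subunit, had a change of -0.16 ± 0.26 in the type I knockout, the least negative of complex III, and of -0.32 ± 0.26 in the type II knockout, its lowest. Uqcrc1 and Uqcrc2, the large core proteins of the complex, had changes of -0.41 ± 0.15 and -0.27 ± 0.14 in the type I knockout and of 0.08 ± 0.15 and 0.12 ± 0.14 in the type II knockout. None of these was called.

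Cycs, the somatic cytochrome c that carries electrons from complex III to complex IV, had 7.99, 8.67 and 7.78 in Wild type I and 7.63, 7.60 and 7.76 in the Type I keratin KO. It had 7.93, 8.13 and 8.05 in Wild type II and 7.33, 7.62 and 7.70 in the Type II keratin KO. The knockout arrays lay below the wild-type arrays in both series. The change was -0.49 ± 0.20 in each knockout, and neither was called (adjusted p = 0.087 and 0.0735). Omitting both arrays that stood apart gave -0.23 ± 0.15 in the type I knockout (adjusted p = 0.299), while in the type II knockout Cycs then fell by 0.52 ± 0.15 (adjusted p = 0.0245).

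Complex IV, cytochrome c oxidase, had 3 of 16 genes fall and 0 rise in the type I knockout (median -0.29), and 2 fall and 1 rise in the type II knockout (median -0.10). The share called was 18.75% in each, against 27.8% and 37.5% of all genes tested. Omission of both arrays that stood apart gave 5 falls and 0 rises in each knockout, with medians of -0.23 and -0.24. In those fits 14.5% and 17.8% of all genes fell and 11.4% and 13.8% rose. Cox4i1, the isoform of subunit 4 made in most tissues, had 12.80, 13.10 and 13.01 in Wild type I and 12.34, 12.37 and 12.36 in the Type I keratin KO. It had 12.60, 12.76 and 12.54 in Wild type II and 12.47, 12.63 and 12.39 in the Type II keratin KO. The type I groups were apart, with the knockout arrays close together, and the type II groups overlapped. Cox4i1 fell by 0.61 ± 0.12 without type I keratins (adjusted p = 0.00363), a call kept under all 23 alternatives. Its change in the type II knockout was -0.13 ± 0.12 (adjusted p = 0.419), and the difference between the changes, 0.48 ± 0.17, was not called (adjusted p = 0.177).

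Complex IV also has isoforms that mark certain tissues. Of the 5 measured, 2 fell in the type I knockout (median -0.97) and 1 in the type II knockout. Among all genes tested the falls were 15.6% and 21.8%. Cox6a2 is the form of subunit 6a in heart and skeletal muscle. Its log2 signals were 12.02, 11.77 and 12.43 in Wild type I and 11.02, 11.05 and 11.25 in the Type I keratin KO. They were 11.74, 11.95 and 11.68 in Wild type II and 10.88, 9.82 and 10.62 in the Type II keratin KO, where array 2 was the lowest of all 12. Cox6a2 fell by 0.97 ± 0.24 (adjusted p = 0.0121) and by 1.35 ± 0.24 (adjusted p = 0.0012), under all 23 alternatives in both knockouts. Knockout and wild-type arrays did not overlap in either series. Without both arrays that stood apart Cox6a2 fell by 1.12 ± 0.16 and by 1.04 ± 0.16.

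Cox6b2, known as the testis form of subunit 6b, had 7.18, 7.36 and 8.05 in Wild type I and 6.49, 6.33 and 6.94 in the Type I keratin KO. It had 7.25, 7.58 and 7.46 in Wild type II and 7.18, 6.96 and 6.64 in the Type II keratin KO. The knockout arrays were again below their wild type in both series. It fell by 0.94 ± 0.24 without type I keratins (adjusted p = 0.0119), a call lost without Type I keratin KO array 2 (0.0513) and with the mean over its probes (0.0574). Its type II change was -0.50 ± 0.24 (adjusted p = 0.115).

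Cox7a1, the form of subunit 7a in heart, skeletal muscle and brown fat, had 7.89, 10.49 and 8.65 in Wild type I and 7.43, 7.07 and 7.51 in the Type I keratin KO. It had 7.91, 8.59 and 8.07 in Wild type II and 6.69, 10.50 and 7.11 in the Type II keratin KO. The highest values are on the arrays with detectable Ucp1, 1 in a wild-type group and 1 in a knockout group. With all arrays the changes were -1.67 ± 0.84 and -0.09 ± 0.84, neither called (adjusted p = 0.16 and 0.942). Without both of those arrays Cox7a1 fell in each knockout, by 0.93 ± 0.27 (adjusted p = 0.0308) and by 1.29 ± 0.27 (adjusted p = 0.00581).

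Cox8b, a form of subunit 8 found in mouse muscle and brown fat, was also the highest of its group on each array with detectable Ucp1. It had 10.49, 11.57 and 11.36 in Wild type I and 9.87, 9.87 and 10.25 in the Type I keratin KO. It had 9.33, 9.82 and 9.99 in Wild type II and 8.91, 11.34 and 8.87 in the Type II keratin KO. Wild type I array 3, without detectable Ucp1, was slightly above Type II keratin KO array 2. The changes were -1.14 ± 0.54 and -0.01 ± 0.54 with all arrays (adjusted p = 0.13 and 0.988). Cox8b, with both of those arrays omitted, fell by 0.93 ± 0.27 (adjusted p = 0.0288) and by 0.83 ± 0.27 (adjusted p = 0.0388).

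Cox4i2, the form of subunit 4 known from lung, was dim: 5.22, 4.99 and 6.54 in Wild type I, 4.81, 4.93 and 6.16 in the Type I keratin KO, 4.97, 5.30 and 5.24 in Wild type II and 5.18, 5.29 and 5.08 in the Type II keratin KO. Groups overlapped in both series, array 3 was the highest of both type I groups, and neither change was called (-0.29 ± 0.39 and 0.02 ± 0.39). Among the forms found in most tissues, Cox7a2 fell by 0.48 ± 0.13 in the type II knockout (adjusted p = 0.0101) under all 23 alternatives and had a change of -0.29 ± 0.13 without type I keratins (adjusted p = 0.11). Cox7a2l, which helps to join complexes III and IV into supercomplexes, rose by 0.43 ± 0.13 in the type II knockout (adjusted p = 0.0247). That call was lost without Wild type II arrays 1 or 3 (0.064 and 0.0791), without Type II keratin KO array 2 (0.0811) and without both arrays that stood apart (0.0938). Cox6a1, the counterpart of Cox6a2 in most tissues, had changes of 0.10 ± 0.16 and 0.33 ± 0.16 (adjusted p = 0.696 and 0.13).

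Complex V, the ATP synthase, had 1 of 16 genes fall and 0 rise in the type I knockout (median -0.22), and 2 fall and 2 rise in the type II knockout (median -0.15). The shares called were 6.25% and 25%, against 27.8% and 37.5% of all genes tested. Atp5g1, Atp5g2 and Atp5g3 encode the same mature subunit c, the ring that turns in the membrane, from separate genes. Atp5g1 had 11.76, 11.78 and 11.97 in Wild type I and 11.20, 11.32 and 11.43 in the Type I keratin KO. It had 11.70, 11.66 and 11.70 in Wild type II and 11.28, 10.67 and 11.47 in the Type II keratin KO. Both knockouts lay below their wild types, and Type II keratin KO array 2 was the lowest of all. Atp5g1 fell by 0.52 ± 0.18 (adjusted p = 0.0474) and by 0.54 ± 0.18 (adjusted p = 0.0313).

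The type II call of Atp5g1 was lost without Type II keratin KO array 2 (adjusted p = 0.0873), without Wild type II arrays 1, 2 or 3 (0.0769, 0.0691 and 0.0781) and without both arrays that stood apart (-0.31 ± 0.13, adjusted p = 0.103). Its type I call was lost in 12 of 23 alternatives, among them without any 1 array of either wild type or of the Type I keratin KO, and without Type II keratin KO array 1 (adjusted p = 0.0517). The adjusted p of the other such type I fits lay between 0.0636 and 0.14.

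Atp5g2 moved the other way in the type II series. Its log2 signals were 9.62, 9.49 and 9.70 in Wild type II and 10.26, 10.08 and 10.18 in the Type II keratin KO. They were 10.13, 10.10 and 10.45 in Wild type I and 10.12, 10.05 and 10.13 in the Type I keratin KO. The Wild type II arrays stood below the other 9, and the other 3 groups overlapped. Atp5g2 rose by 0.57 ± 0.13 in the type II knockout (adjusted p = 0.0042), under all 23 alternatives, and had a change of -0.13 ± 0.13 without type I keratins (adjusted p = 0.469). The third gene, Atp5g3, had changes of -0.22 and -0.21 and was not called.

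The difference between the type II and the type I change of Atp5g2 was 0.70 ± 0.18 (adjusted p = 0.0599), and 6 of 22 alternatives put it past the threshold, with adjusted p from 0.0222 to 0.231 over all of them. Atp5g2 was also the only member called between the wild types, 0.62 ± 0.13 lower in Wild type II, a log2 difference of -0.62 (adjusted p = 0.0365; of all genes tested 1.54% were called in either direction, 0.6% higher and 0.941% lower). The wild types belong to different series, so series and group cannot be told apart there. That call was lost in 10 of 22 alternatives (adjusted p up to 0.141), among them without Wild type I arrays 2 (0.057) or 3 (0.104), without any 1 of the Type I keratin KO arrays (0.0515 to 0.0657) and without Wild type II arrays 1, 2 or 3 (0.112, 0.141 and 0.0702).

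Among the other ATP synthase genes, Atp5o, whose protein joins the stalk to the catalytic head, rose by 0.51 ± 0.18 in the type II knockout (adjusted p = 0.0378), lost in 10 of 23 alternatives. These included the fits without each of the Wild type II arrays (0.0853, 0.103 and 0.073), each of the Type II keratin KO arrays (0.0943, 0.0684 and 0.0559) and Type I keratin KO array 2 (0.0522). Atp5j2, subunit f of the membrane part, fell by 0.48 ± 0.14 in the type II knockout (adjusted p = 0.0188) and had a change of -0.40 ± 0.14 without type I keratins (adjusted p = 0.0541). Its call was lost without Wild type II array 2 (0.0608) and Type II keratin KO arrays 1 (0.0682) or 3 (0.0523). Atp5e, the small epsilon subunit, had the lowest change of the complex in the type I knockout, -0.90 ± 0.39, with wide groups (SD 0.877 and 0.715, n = 3) and no call (adjusted p = 0.106). Atp5l, subunit g, had the highest, 0.14 ± 0.17 (adjusted p = 0.562).

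**Figure D3:**
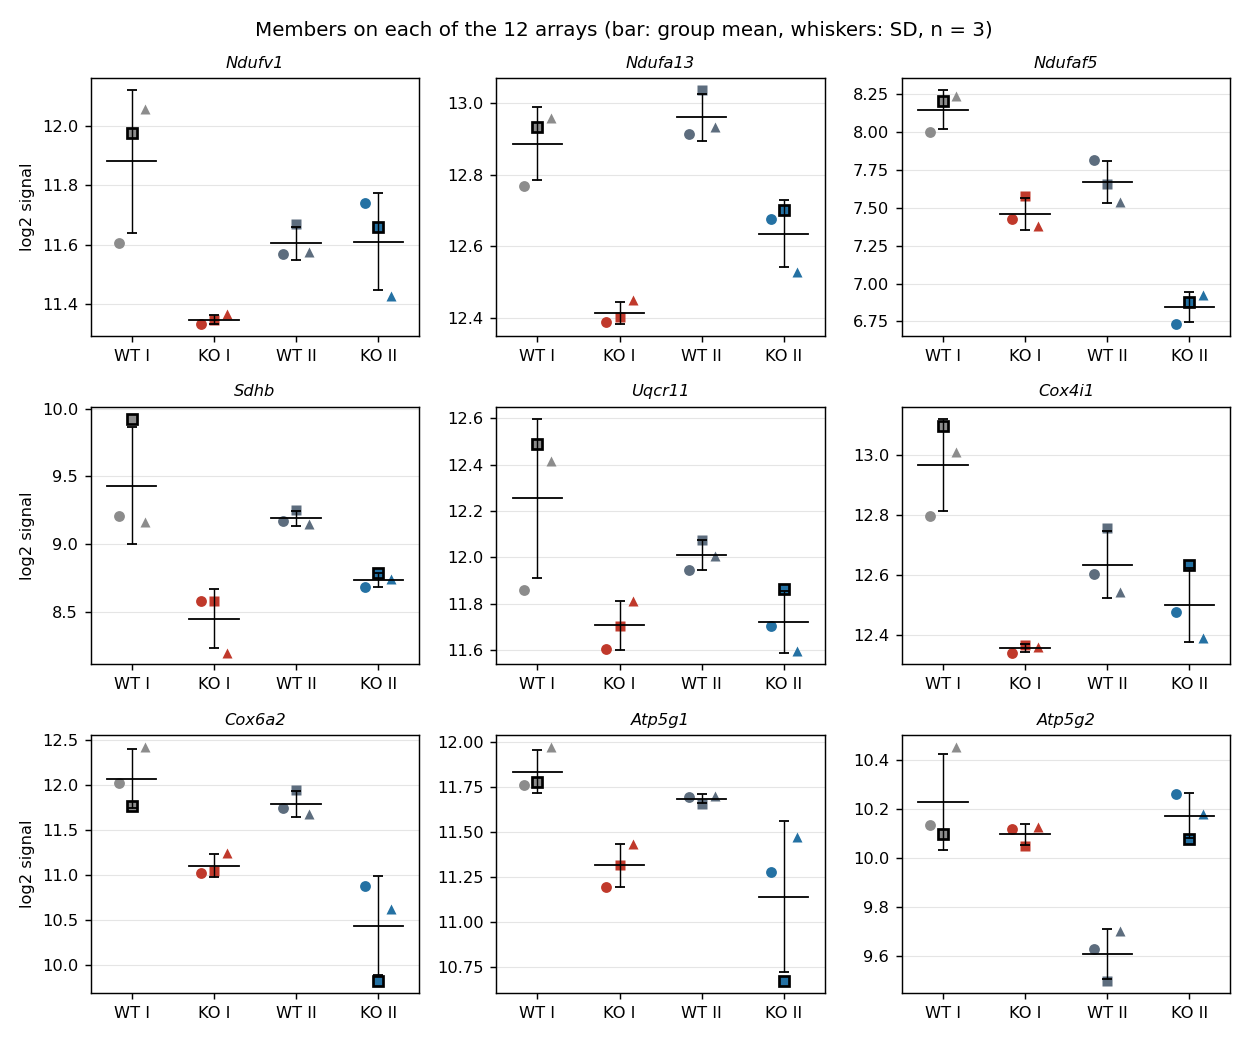
Log2 signal (y axis) of 9 members on each array by group (x axis; WT, wild type; KO, knockout), with circles, squares and triangles for arrays 1, 2 and 3, a bar at the group mean and whiskers of 1 SD (n = 3); black outlines mark the arrays with detectable Ucp1. Knockout arrays of Ndufaf5, Ndufa13, Sdhb, Uqcr11, Cox6a2 and Atp5g1 lie below their wild types in both series, those of Ndufv1 and Cox4i1 only in the type I series, and Atp5g2 is low in Wild type II.

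Set side by side, 6 members fell in both knockouts: Ndufa13, Ndufa2, Ndufs6, Ndufaf5, Cox6a2 and Atp5g1. A further 11 were called in the type I knockout only and 7 in the type II knockout only, and 58 in neither. Of the 17 members called in the type I knockout 35.3% were also called in the type II knockout, against 67.9% of such genes among all tested. Of the 13 called in the type II knockout 46.2% were also called in the type I knockout, against 50.3%. Falls in both numbered 7.32% of the members and 10.2% of all genes, and 70.7% of the members and 53.6% of all genes were called in neither. The difference between both changes was called for 0 of 82 members by limma (of all genes tested, 3.05% were called in either direction, 1.21% higher and 1.85% lower), with 8 at an unadjusted p under 0.05, so a call in a single knockout is not shown to be particular to it. The median difference, type II minus type I change, was 0.16 with all arrays and 0.01 without both arrays that stood apart. Across the 82 members the changes in both knockouts correlated at r = 0.45, and at 0.62 without both arrays, against 0.67 and 0.64 over all 11163 genes. These are descriptions across genes measured on the same arrays, and genes are not independent replicates. Changes below 0 in both knockouts numbered 51, and 60 without both arrays, where 11 members fell in both, 5 of them in common. The share of all genes below 0 in both knockouts was not computed.

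**Figure D4:**
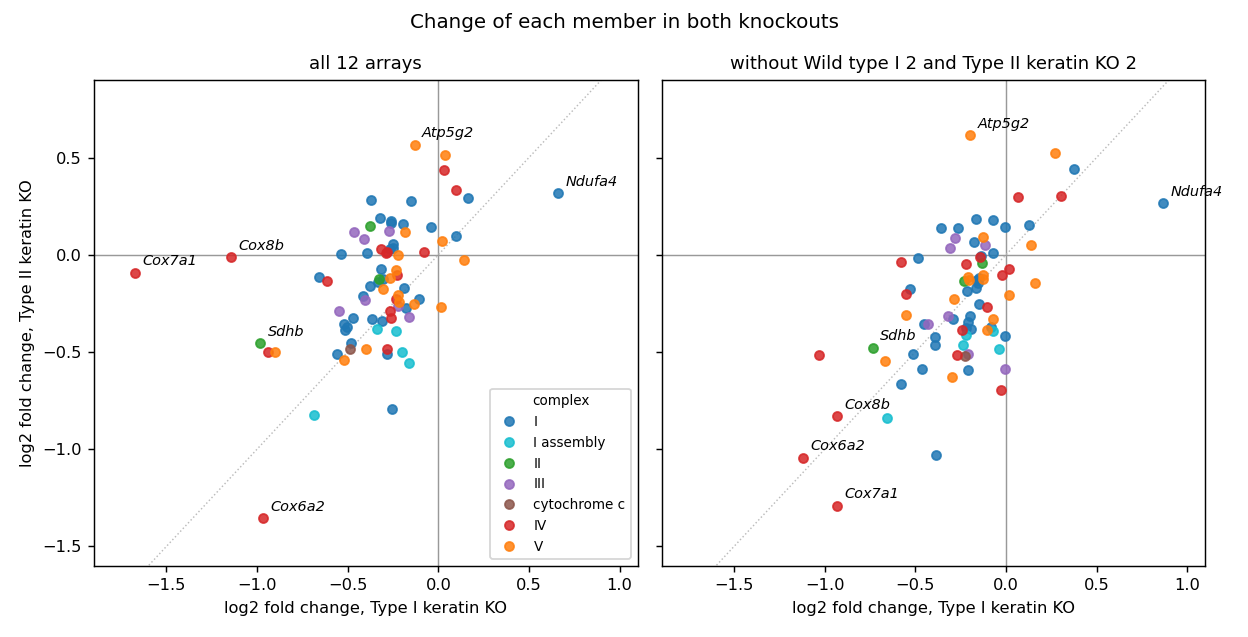
Log2 fold change of each of the 82 members in the Type I keratin KO (x axis) and the Type II keratin KO (y axis), coloured by complex, with all 12 arrays (left) and without both arrays that have detectable Ucp1 (right); the dotted line marks equal change. Cox7a1 and Cox8b move from near 0 on the y axis to -1.29 and -0.83, and r over the members goes from 0.45 to 0.62.

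Between the wild types, 66 of 82 members (80.5%) were lower in Wild type II, against 48.0% of all genes tested. Their median difference was -0.16 (0.01 over all genes). Without both arrays that stood apart 50 members were lower, with a median of -0.07. Sample titles also carry numbers whose meaning the labels do not give. Within them, the median member change in the type I series was -0.31 for 2705 (2 arrays of each genotype, 77 of 82 below 0) and -0.30 for 2602 (1 of each, 69 below 0). Of all genes tested, 61.3% were below 0 within 2705 and 56.5% within 2602. In the type II series, with 1 array of each genotype, the median member change was -0.21 for 2794 (56 below 0). It was -0.02 for 2818 (43 below 0), which holds Type II keratin KO array 2, and -0.20 for 2819 (68 below 0). Of all genes tested 54.9%, 55.5% and 57.2% were below 0 within these numbers. With the number as a random block 21 members were called in the type I knockout (1 rose and 20 fell) and 18 in the type II knockout (3 and 15). Of all genes, 14.2% then rose and 20.1% fell in the type I knockout, and 17.8% and 25.3% in the type II knockout.

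Markers of other cell types also differed between these groups. For comparison, 15.6% of all genes tested fell and 12.2% rose in the type I knockout, and 21.8% and 15.7% in the type II knockout. Of 21 skeletal muscle markers, 9 fell and 0 rose in the type I knockout (median -0.84), and 17 fell and 0 rose in the type II knockout (median -1.40). The falls were 17 and 15 without both arrays that stood apart, with medians of -0.97 and -1.16. Their summed signal was 138550 to 168270 on the Wild type I arrays and 106040 to 112470 on the Type I keratin KO arrays. In the other series it was 132510 to 152290 in wild type and 50211 to 92828 in the knockout, with the lowest value on array 2. Tnnt3 and Tnnc2, troponins of fast muscle, were among them, and Tnnt3 fell by 1.72 ± 0.22 (adjusted p = 0.000157) while Tnnc2 fell by 1.81 ± 0.25 (adjusted p = 0.000202). In the type I knockout the alpha-actinin Actn3 and the mitochondrial creatine kinase Ckmt2 fell by 1.25 ± 0.29 and 0.87 ± 0.23 (adjusted p = 0.00802 and 0.0153). All 21 were detected on every wild-type array.

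Adipocyte markers numbered 8, of which 7 fell with the loss of type I keratins (median -1.30) and 6 with that of type II keratins (median -1.16). The leptin gene Lep fell by 1.48 ± 0.29 in the first (adjusted p = 0.00372) and fell by 3.11 ± 0.29 in the second (adjusted p = 1.72e-05). Their summed signal was 12249 to 23836 in Wild type I, 8905 to 9486 in the Type I keratin KO, 14394 to 18861 in Wild type II and 6428 to 13912 in the Type II keratin KO. The highest value of Wild type I and that of the Type II keratin KO were on the arrays with detectable Ucp1. Of 15 dermal fibroblast markers, 12 and 10 fell (medians -0.49 and -0.53), with summed signals of 75589 to 79731 and 73063 to 75724 in the wild types and 48903 to 57623 and 43211 to 53578 in the knockouts. Of 15 keratinocyte markers outside the keratins, 8 rose and 1 fell in the type I knockout (median 0.71), and 9 rose and 2 fell in the type II knockout (median 0.99). Their summed signals were 47262 to 52212 and 60026 to 70077 in the type I series and 44662 to 52909 and 40369 to 49532 in the type II series, wild type first. Without both arrays, 6 and 7 adipocyte markers and 11 and 7 fibroblast markers fell, and 8 keratinocyte markers rose in each knockout. The part of these cell types in the changes of the respiratory chain genes was not tested.

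Markers of endothelial cells, macrophages and red cells were listed as well, beside the 15.6% and 21.8% of all genes that fell. Of 8 endothelial markers 1 fell in the type I knockout, Egfl7 by 0.62 ± 0.13 (adjusted p = 0.0058), and 0 in the type II knockout. Of 7 macrophage markers 0 were called in the type I knockout and 3 fell in the type II knockout, among them the mannose receptor Mrc1 by 0.88 ± 0.21 (adjusted p = 0.00691), with list medians of -0.05 and -0.51. Of 4 erythroid markers 2 fell in the type I knockout, the globin gene Hba-a1 by 0.64 ± 0.15 and the heme synthesis gene Alas2 by 1.23 ± 0.37, and 0 in the type II knockout (medians -0.36 and 0.45). The call of Alas2 was lost without both arrays that stood apart (adjusted p = 0.0872).

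Other mitochondrial genes were listed for comparison. Of 16 genes of the tricarboxylic acid cycle and pyruvate dehydrogenase, 7 fell and 0 rose in the type I knockout (median -0.47), and 3 fell and 0 rose in the type II knockout (median -0.21). The shares that fell were 43.75% and 18.75%, against 15.6% and 21.8% of all genes tested. Without both arrays that stood apart the falls were 4 and 4, with medians of -0.30 and -0.34, while 14.5% and 17.8% of all genes fell. Idh3a, the catalytic subunit of the isocitrate dehydrogenase that feeds NADH to complex I, had 9.36, 9.92 and 9.73 in Wild type I and 8.51, 8.77 and 8.64 in the Type I keratin KO. It had 9.29, 9.56 and 9.41 in Wild type II and 8.40, 9.13 and 8.55 in the Type II keratin KO. The groups were apart in both series, and Idh3a fell by 1.03 ± 0.20 (adjusted p = 0.00283) and 0.73 ± 0.20 (adjusted p = 0.0123). Its partner Idh3b fell by 0.96 ± 0.21 without type I keratins (adjusted p = 0.00662), and Dlat, the acetyltransferase of pyruvate dehydrogenase, fell by 0.72 ± 0.20 in the type II knockout (adjusted p = 0.0152).

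Of 31 assembly factors and inhibitors outside the symbol rule, 2 rose and 3 fell in the type I knockout (median -0.15). In the type II knockout 3 rose and 1 fell (median 0.01). The shares called were 16.1% and 12.9%, against 27.8% and 37.5% of all genes tested. Acad9, an acyl-CoA dehydrogenase that also serves complex I assembly, had 7.67, 8.04 and 7.69 in Wild type I and 9.09, 9.08 and 8.62 in the Type I keratin KO. Its signals were 7.83, 8.08 and 7.88 in Wild type II and 8.19, 8.93 and 7.74 in the Type II keratin KO. All type I knockout arrays were above their wild type and the type II groups overlapped. With the loss of type I keratins Acad9 rose by 1.13 ± 0.25 (adjusted p = 0.00686), in the samples in which 8 complex I subunit genes fell. Ttc19, which serves complex III, fell by 0.57 ± 0.11 there (adjusted p = 0.00327). Among the type II changes, Sdhaf3, an assembly factor of complex II, rose by 0.53 ± 0.15 (adjusted p = 0.0128) and Atpif1, the inhibitor of the ATP synthase, fell by 0.43 ± 0.12 (adjusted p = 0.0138).

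Of 16 regulators of mitochondrial biogenesis and of mitochondrial DNA, 1 fell and 0 rose in the type I knockout. In the type II knockout 3 fell and 2 rose. The shares that fell were 6.25% and 18.75%, against 15.6% and 21.8% of all genes tested. Ppargc1a, the gene of the coactivator PGC-1alpha, had 5.95, 6.61 and 7.08 in Wild type I and 5.12, 5.13 and 5.53 in the Type I keratin KO. It had 4.97, 5.18 and 5.13 in Wild type II and 5.04, 5.42 and 4.49 in the Type II keratin KO. The Wild type I arrays were the highest of all 12. Ppargc1a fell by 1.28 ± 0.28 without type I keratins (adjusted p = 0.00591), and by 1.25 ± 0.30 without both arrays that stood apart (adjusted p = 0.0141). In the type II knockout Gabpa and Gabpb1, which encode the chains of the factor GABP, rose by 1.20 ± 0.23 (adjusted p = 0.0019) and 0.71 ± 0.14 (adjusted p = 0.0025). The type II rise of Gabpa was 0.87 ± 0.15 without both arrays (adjusted p = 0.002).

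Of 17 mitochondrial channels, carriers and chaperones, 3 fell and 0 rose in the type I knockout (median -0.22). In the type II knockout 1 fell and 0 rose (median 0.08). The shares that fell were 17.6% and 5.88%, against 15.6% and 21.8% of all genes tested. Mfn2, which fuses mitochondria, and Timm50, of the inner membrane import machinery, fell by 0.56 ± 0.14 and 0.50 ± 0.15 in the type I knockout (adjusted p = 0.0107 and 0.0276). Vdac3, a channel of the outer membrane, fell by 0.49 ± 0.13 in the type II knockout (adjusted p = 0.014).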

How the data were processed

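Total RNA of back skin was hybridised as biotin-labelled cRNA to 12 Illumina bead arrays, 3 per group. The table used was deposited by the authors without normalization or background subtraction. Per the file headers it gives each probe an average signal (an intensity) and a detection p-value on every array. The method behind the detection p-value is not given in the sources used here. A processed table from the authors, also deposited, is on a linear intensity scale and served as an alternative only, as log2 of its values floored at 0 plus 16; the design had assumed a log2 scale.

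Signals were corrected by normexp (negative controls inferred from the detection p, offset 16), quantile normalized and log2-transformed, using limma 3.58.1 under R 4.3.3. Of 25697 probes, 23978 carried 1 gene symbol and 14744 were detected on at least 3 arrays. Each gene was represented by its brightest entered probe. Of 14 members with several entered probes, 4 (type I) and 2 (type II) had probes of opposite sign and 0 had probes called in opposite directions. Cross-hybridisation, for instance among the Atp5g genes, was not checked. A single linear model with a term per group (8 residual degrees of freedom) was fitted to all genes (lmFit, then eBayes), with Benjamini-Hochberg adjustment over all of them; the script was tested on simulated data. Log2 fold changes are given ± standard error, n = 3 per group, a number that limits the precision.

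The members, gene lists and naming rule were chosen with earlier results of these data known. Named are all complex II genes, Cyc1, Cycs, every called member, the extreme changes of each complex and the tissue isoforms, and up to 2 genes of each other list per knockout. Alternatives covered background, scaling, filters, probes, blocks, weights, a fit to only the groups compared and omission of single arrays. Arrays of the same replicate number were not taken as pairs, since the labels give no meaning to the numbers. Fits with the replicate number or the title number as a block were alternatives.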

Additional observations from a re-analysis of the deposited data

How the results depend on the processing

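In the type I comparison 17 members were called, against 7 (1 rose and 6 fell) with median scaling and 40 (1 and 39) with array weights. In the main fit 15.6% of all genes fell and 12.2% rose. These shares were 14.3% and 10.2% with median scaling and 25.4% and 16.4% with array weights. Median scaling lost the type I calls of Ndufa13, Ndufa2, Ndufb8, Ndufs4, Ndufs6, Ndufv1, Ndufv2, Uqcr10, Uqcr11 and Atp5g1. It also lost the type II calls of Ndufa13, Ndufs6, Cox7a2l, Atp5j2 and Atp5o, and gained others, among them Ndufb10, Sdhb and Cycs. The type II count was then 14 (1 rose and 13 fell), with 25.3% of all genes falling and 11.1% rising. Omitting 1 array at a time gave 8 to 21 called members in the type I comparison, with 9.12% to 18.9% of all genes falling. In the type II comparison 13 were called, and 13 to 19 over the alternatives that keep all arrays. With 1 array omitted 6 to 17 were called there, with 15.95% to 23.5% of all genes falling. Without Wild type I array 2 and Type II keratin KO array 2 together, an alternative chosen after seeing the data, 24 were called. The difference between the changes called 0 members. It called 1, Atp5g2, with no background correction (adjusted p = 0.0261), an offset of 50 (0.0332), no filter on dim probes (0.0441), the title number as a random block (0.0259) and array weights (0.0222). With 1 array omitted it called 0 to 1, the 1 being Atp5g2 without Type II keratin KO array 2 (0.0453) and Ndufv3 without array 3 (0.0491). Between the wild types 1 was called, against 2 without background correction (also Ndufaf5) and 0 with median scaling. With only the groups compared 0 were called, with array weights 9, and with 1 array omitted 0 to 2. In the main fit 0.6% of all genes were higher and 0.941% lower in Wild type II, and with array weights 2.86% and 4.14%. The array weights ran from 0.31 for Type II keratin KO array 2 to 2.86 for Type I keratin KO array 2. They were 1.76 for Wild type I array 2, which has detectable Ucp1, and 0.36 for Wild type I array 3. Why the counts of called members moved was not tested.

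Fitted with the replicate number as a block, 18 members were called in the type I comparison, 18 in the type II comparison and 0 in the difference. This block was not possible between the wild types. With it 12.3% of all genes rose and 16.1% fell in the type I comparison, and 16.2% and 22.5% in the type II comparison. Same-numbered arrays had correlated deviations of 0.17, 0.06 and 0.36 in the type I series and 0.08, 0.03 and 0.14 in the type II series. The labels give the numbers no meaning, and the main model has no block term. In the type II series same-numbered arrays also share a title number, and in the type I series replicates 1 and 2 share 1 title number and replicate 3 has another. Type I wild-type and knockout arrays that share a title number had deviations correlated at 0.06 to 0.36. Those of different title numbers had -0.28 to -0.17, and in the type II series -0.16 to 0.07. Deviations were taken from the mean of each group of 3 arrays, so positive values for some pairs tend to push the others below 0. The main model leaves out a block that the title numbers may mark, and these correlations cannot decide whether they do. The title number as a random block (consensus correlation 0.21) called 21 members for type I and 18 for type II. Among the named members, both blocks added type II calls for Sdhb, Ndufv2, Ndufb8 and Ndufb10 (adjusted p 0.0350 to 0.0486), and the replicate block called Cox6b2 (0.0464) and lost Ndufa13 (0.0554). For type I both added Cyc1 (0.0472 and 0.0367), and the title number added Atp5j2 (0.0324).

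Of 31 called values of members, 10 kept their call under every alternative. Over 712 values of alternatives, 577 kept their call, 135 lost it and 0 turned direction. Of 1078 values for 47 uncalled ones, 68 passed the threshold. The median standard error of a type I log2 fold change was 0.17, beside a median member change of -0.29.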
